A study of Homo sapiens with 4 samples.

Results

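PLAU, PLAUR, PLAT, SERPINE2 and F3 encode the core of cell-surface plasminogen activation and its link to clotting, and this account follows these 5 genes between MIA PaCa-2 cells that overexpress ING3 and their controls. A probe set counted for a gene where the array annotation gave it that 1 symbol. They had 9 probe sets, and all 5 genes were among the 12190 genes tested, out of 19775 with a named probe set. Each gene was read from its brightest probe set, the one with the highest mean log2 signal over all arrays, with its other probe sets given beside it.

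MIA PaCa-2 is an established human pancreatic carcinoma line. The control cells (genotype control) carried a lentivirus expressing GFP, and the ING3 cells (genotype ING3-overexpressing) a lentivirus with FLAG-tagged full-length ING3 in a vector with a CMV/TO promoter and puromycin selection. Both were grown in the same serum-containing medium and harvested before full confluence after stable cells had been selected. ING3 belongs to the NuA4/TIP60 complex, which acetylates histones, and the comparison asks which transcripts differ when it is in excess. There were 2 arrays (a and b) in each group, and the design text calls them technical duplicates. The p-values below therefore measure the difference between 1 control and 1 ING3 cell population against technical spread, not against independent cultures, and the labels do not say how many clones each population held.

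Urokinase (PLAU) and tissue-type plasminogen activator (PLAT) are serine proteases that turn plasminogen into plasmin, which dissolves fibrin and cuts matrix proteins. The urokinase receptor (PLAUR) is a GPI-anchored protein that holds urokinase at the cell surface, and protease nexin-1 (SERPINE2) is a secreted serpin that inhibits thrombin, urokinase, tissue-type activator and plasmin. Tissue factor (F3) is the membrane receptor for factor VII that starts clotting. In pancreatic carcinoma, urokinase and its receptor are known for their part in invasion and tissue factor for thrombosis.

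The regulatory sequence just before the starts of the genes that rose, and of F3 for comparison, was searched for common motifs. RefSeq sequences of GRCh38.p14 were found for each of these 4 genes, and PLAT was not searched. The 250 bases before 1 start of each gene are printed 5′ to 3′ on the gene's strand, with every match to a searched motif in capitals. PLAUR lies on the minus strand at chr19:43670170-43670419, SERPINE2 on the minus strand at chr2:224038641-224038890, PLAU on the plus strand at chr10:73910882-73911131 and F3 on the minus strand at chr1:94541760-94542009.
PLAUR: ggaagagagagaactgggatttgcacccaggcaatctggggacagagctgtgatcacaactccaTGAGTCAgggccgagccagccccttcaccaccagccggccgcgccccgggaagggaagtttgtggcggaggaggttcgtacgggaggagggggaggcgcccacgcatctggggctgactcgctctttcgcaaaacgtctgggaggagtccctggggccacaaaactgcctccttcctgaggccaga
SERPINE2: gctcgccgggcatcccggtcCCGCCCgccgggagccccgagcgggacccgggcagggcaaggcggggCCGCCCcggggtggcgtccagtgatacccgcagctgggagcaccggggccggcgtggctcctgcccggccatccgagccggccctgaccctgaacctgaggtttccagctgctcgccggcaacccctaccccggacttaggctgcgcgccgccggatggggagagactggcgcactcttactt
PLAU: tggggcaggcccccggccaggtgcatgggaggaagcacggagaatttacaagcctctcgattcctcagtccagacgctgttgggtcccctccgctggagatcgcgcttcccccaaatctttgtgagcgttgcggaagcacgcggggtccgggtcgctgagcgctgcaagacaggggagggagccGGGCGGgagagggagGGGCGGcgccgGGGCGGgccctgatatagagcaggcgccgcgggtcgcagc
F3: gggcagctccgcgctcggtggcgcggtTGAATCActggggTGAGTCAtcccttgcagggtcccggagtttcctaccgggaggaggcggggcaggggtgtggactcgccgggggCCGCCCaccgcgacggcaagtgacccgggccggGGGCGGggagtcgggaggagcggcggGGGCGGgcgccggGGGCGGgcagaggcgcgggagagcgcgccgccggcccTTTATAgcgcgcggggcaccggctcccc

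The motifs were searched on both strands. They were the AP-1 element as TGANTCA, the cAMP response element as TGACGTCA, the Sp1 GC box as GGGCGG, the ETS element as CCGGAAGT, the TATA box as TATAAA and the NF-kB consensus. In PLAUR the capitals mark a single match, TGAGTCA, of the AP-1 form, which begins 186 bases before the start. F3 held 2 matches to the AP-1 letters, which begin 223 and 210 bases before the start. The F3 region also held 4 GC boxes, and the one that begins 137 bases before the start is on the opposite strand, printed as CCGCCC. Its match to the TATA box letters, 28 bases before the start, is on the opposite strand too, printed as TTTATA. PLAU held 3 GC boxes between 66 and 35 bases before the start, and SERPINE2 held 2, both on the opposite strand and thus printed as CCGCCC. These regions are rich in G and C, from 63.2% in PLAUR to 78.0% in F3. PLAU and SERPINE2 each have another start in the table. The region before the other PLAU start (chr10:73910360-73910609) held none of the motifs, and that before the other SERPINE2 start (chr2:224031479-224031728) held 1 GC box. Of 35116 regions of the same length before gene starts, 6.57% held the AP-1 letters, 42.6% a GC box and 10.7% a TATA box. These matches are a description of letters, and occupancy of these sites was not measured here.

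Across tested genes, the log2 difference between duplicates had an SD of 0.31 in control and 0.29 in ING3 cells. The difference between the group means, each over 2 arrays, had an SD of 0.26. Averaging 2 arrays lowers the spread, so this SD cannot be compared directly with those between single arrays. Across tested genes, the 2 control arrays correlated at r = 0.989 and the 2 ING3 arrays at r = 0.991 (across genes, which are no replicates). The ACTB ratio of 3′ to 5′ signal, a measure of RNA quality, was 2.58 on control array a, 1.80 on control array b and 2.05 and 2.03 on the ING3 arrays, and that of GAPDH lay between 0.903 and 0.934. The brightest ING3 probe set averaged 356 ± 24.9 (SD, n = 2) in control and 531 ± 14.5 (SD, n = 2) in ING3 cells. Its log2 difference was 0.58, which did not pass (limma adjusted p = 0.071), and its 3 other probe sets differed by -0.19, 0.018 and 0.50, the last of them under the filter with overlapping groups, so the overexpression that the labels name was not seen on all probe sets. Of 12 markers of carcinoma epithelium 7 passed the filter on dim genes. The keratins KRT8, KRT18 and KRT19 and the mucin MUC1 were bright, the keratin KRT7 was dim (90.5 in control and 78.8 in ING3 cells), and the adhesion genes EPCAM and E-cadherin (CDH1) were under the filter. Of 7 mesenchymal markers 3 passed the filter, VIM and ZEB1 bright and SPARC dim, and CDH2, FN1, TWIST1 and SNAI2 were under it. The epithelial label was thus borne out by part of its markers only. KRT8, KRT19 and MUC1 rose, and the summed signal of the 12 epithelial markers was 43742 to 43879 on the control and 50113 to 53438 on the ING3 arrays. The summed signal of 6 leukocyte markers was 196 to 414 on control and 333 to 373 on ING3 arrays, that of 6 endothelial markers 1061 to 1122 and 831 to 1051, that of 9 fibroblast and stellate markers 6990 to 7138 and 6093 to 6455, and that of 3 acinar markers 49.5 to 82.7 and 64.9 to 93.8. The leukocyte marker PTPRC averaged 10.7 in control and 14.2 in ING3 cells, at the 19.6th percentile of brightness among all probe sets. The leukocyte markers LYZ and CD3E passed the filter on dim genes. LYZ averaged 118 in control and 150 in ING3 cells, and CD3E 84.0 and 64.8, both with overlapping groups. What part these marker shifts have in the results below was not tested, and in bulk RNA fewer cells with a transcript and less transcript per cell cannot be told apart.

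In the ING3 cells 3 of the 5 genes rose, SERPINE2 by 2.03-fold, PLAUR by 1.42-fold and PLAU by 1.25-fold, and 0 fell. PLAT had a lower mean in the ING3 cells and F3 overlapped between the groups, and neither passed. Over all 12190 tested genes 1.03% rose, 0.476% fell and 1.5% were called in either direction. Both ING3 arrays lay above both control arrays for 3 of the 5 genes, against 24.3% of all tested genes, and below for 1, against 24.9%. Groups that do not overlap in either direction were thus common, at 49.2% of tested genes. The median log2 difference of all tested genes was -0.0074. Calls are at an adjusted p under 0.05 (limma, Benjamini-Hochberg over all tested genes), and fold changes are 2 to the power of the log2 difference, ING3 minus control, of log2(signal + 1). An exact permutation test of 1 gene over 2 against 2 arrays cannot give a two-sided p below 0.333, so limma's estimate of spread, borrowed in part from other genes, carries each call. Without the intensity trend in that estimate 0 of the 12190 genes were called by limma, H2BC21 and SERPINB1 below included, and 1686 had an unadjusted p under 0.05. The 5 genes were chosen with earlier results of these data known, so the count is a description of them.

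**Figure D1:**
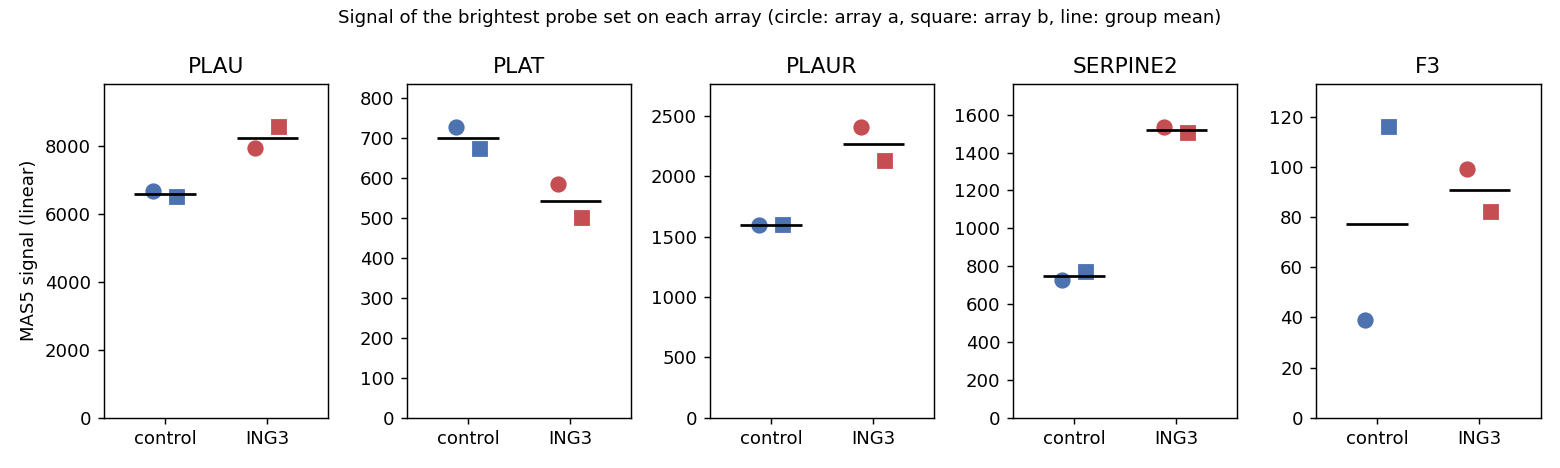
MAS5 signal (linear, from 0) of the brightest probe set of each gene on the 4 arrays. Circles are arrays a, squares arrays b, blue control, red ING3, and the black line is the mean of the 2 arrays of a group. The ING3 points lie above the control points for PLAU, PLAUR and SERPINE2, below them for PLAT and between them for F3.

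PLAU was called and PLAT was not. The brightest PLAU probe set, 205479_s_at, had signals of 6673 and 6495 on control arrays a and b and of 7936 and 8561 on ING3 arrays a and b. Both ING3 arrays were higher, and the log2 gap between the duplicates was 0.039 in the control and 0.11 in the ING3 cells. Mean signal went from 6584 ± 126 to 8248 ± 442 (SD, n = 2), a log2 difference of 0.32 (SE 0.061, 95% interval 0.19 to 0.46, limma adjusted p = 0.038). The second PLAU probe set, 211668_s_at, read 1461 and 1516 in control and 2004 and 1841 in ING3 cells (arrays a and b). Its groups did not overlap either, and its log2 difference of 0.37 was near that of the first. Tested among all 22559 probe sets past the filter, of which 0.479% were called and 0.35% rose, neither PLAU probe set passed (adjusted p = 0.068 for the brightest and 0.097 for the second, limma). The call of PLAU was also lost without control array a (log2 difference 0.34, adjusted p = 0.28), without control array b (0.30, adjusted p = 0.31) and without ING3 array b (0.27, adjusted p = 0.067), as well as with no filter, without the intensity trend in limma and after quantile or cyclic loess normalization, and its adjusted p ran from 0.015 to 0.31 over 14 alternatives.

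PLAT, the tissue-type activator, had 1 probe set, with signals of 728 and 672 on control arrays a and b and of 585 and 499 on ING3 arrays a and b. Both ING3 arrays were lower than both control arrays. The log2 difference was -0.37 (SE 0.12, 95% interval -0.65 to -0.092), which did not pass over all genes (limma adjusted p = 0.17), and its adjusted p stayed between 0.11 and 0.51 over 14 alternatives. The interval before adjustment leaves out 0, and the means were 700 ± 39.5 and 542 ± 60.8 (SD, n = 2), 1.29-fold apart. Within each array the signal of PLAU relative to that of PLAT, set to the control mean, was -0.038 and 0.038 (log2) in the control cells and 0.53 and 0.86 in the ING3 cells. The balance of the activator transcripts was thus 1.62-fold further towards urokinase on the ING3 arrays, a ratio that shows unequal change and was not tested.

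PLAUR, the receptor, had 3 probe sets, all past the filter. The brightest, 210845_s_at, read 1598 on each control array, and with ING3 it read 2407 (array a) and 2128 (array b). The control duplicates were almost equal, with an SD of 0.354, and the wider gap lay between the ING3 arrays. Mean signal went from 1598 ± 0.354 to 2268 ± 197 (SD, n = 2), a log2 difference of 0.50 (SE 0.082, 95% interval 0.32 to 0.69, limma adjusted p = 0.025). The second, 211924_s_at, read 590 and 691 on the control and 798 and 871 on the ING3 arrays, a log2 difference of 0.38. The third, 214866_at, read 365 and 407 on the control and 439 and 444 on the ING3 arrays, a log2 difference of 0.20. All 3 probe sets put both ING3 arrays above both control arrays, but they differed in size, and in the test over all probe sets the brightest alone passed (adjusted p = 0.0497, 0.19 and 0.52 by limma, from the brightest to the dimmest). With the mean of the 3 probe sets in place of the brightest, PLAUR did not pass (0.36, adjusted p = 0.10). The call was lost without control array a (0.50, adjusted p = 0.24) and without control array b (0.50, adjusted p = 0.23), and also with no filter or without the intensity trend, and the adjusted p ran from 0.0043 to 0.25 over 14 alternatives.

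**Figure D2:**
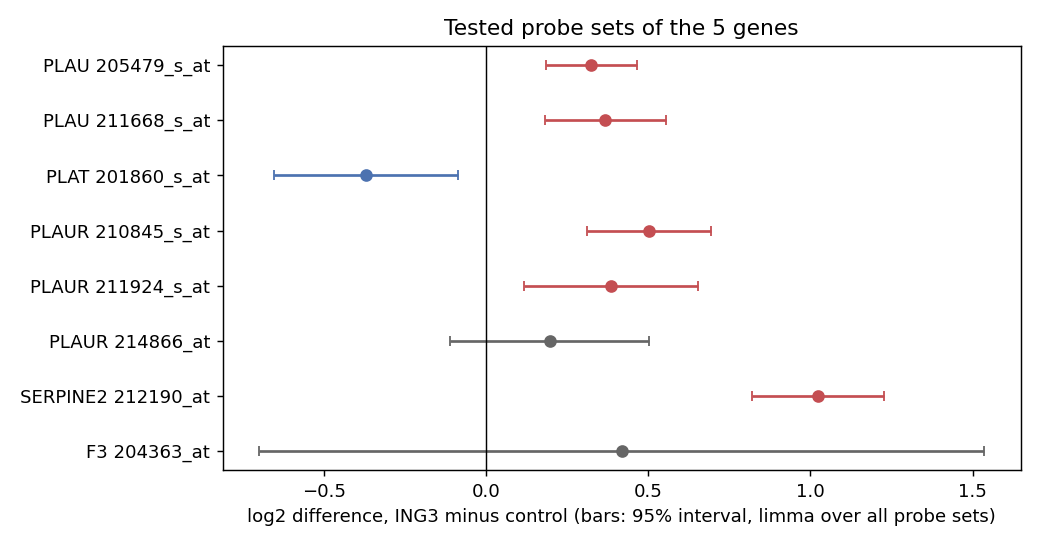
Log2 difference, ING3 minus control, for the 8 tested probe sets of the 5 genes, with the 95% interval from limma over all probe sets before adjustment. Red intervals lie above 0, blue below 0 and grey ones hold 0. The PLAU and PLAUR probe sets all lie to the right, PLAT to the left, SERPINE2 farthest right at 1.02, and F3 has the widest interval.

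SERPINE2, the inhibitor, differed most among the 5 genes. Its brightest probe set, 212190_at, read 726 and 768 in control and 1534 and 1505 in ING3 cells (arrays a and b). The groups were far apart, with a log2 difference 12.6 times the wider of the 2 gaps between duplicates, against 2.97 times for PLAU and 2.82 times for PLAUR. Mean signal went from 747 ± 29.7 to 1519 ± 20.5 (SD, n = 2), a log2 difference of 1.02 (SE 0.088, 95% interval 0.82 to 1.22, limma adjusted p = 0.0030). The other probe set, 227487_s_at, read 39.1 and 8.19 on the control and 24.0 and 3.90 on the ING3 arrays. It stood at the 21.5th percentile of brightness among all probe sets and under the filter on dim genes, with overlapping groups and a log2 difference of -0.79, smaller than the gap between either pair of duplicates. SERPINE2 lost its call without control array a (0.98, adjusted p = 0.099) and without control array b (1.06, adjusted p = 0.061), and without the intensity trend (1.02, adjusted p = 0.24), with adjusted p between 8.1e-05 and 0.24 over 14 alternatives and a log2 difference that stayed between 0.98 and 1.06 in all of them.

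The log2 difference of SERPINE2 was larger than those of the proteases it inhibits. Relative to SERPINE2 on the same array, and with the control mean set to 0, the PLAU signal was 0.060 and -0.060 (log2) on the control and -0.77 and -0.63 on the ING3 arrays. The same ratio for PLAT was 0.098 and -0.098 on the control and -1.29 and -1.50 on the ING3 arrays. For PLAU relative to PLAUR it was 0.019 and -0.019 on the control and -0.32 and -0.034 on the ING3 arrays, so 1 ING3 array lay near the control arrays. On the ING3 arrays the mean transcript ratio of protease to inhibitor was 1.62-fold lower for PLAU and 2.63-fold lower for PLAT. These ratios compare transcripts, not active proteins, and were not tested.

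F3, tissue factor, was dim and its arrays disagreed. Its probe set read 39.0 on control array a, 116 on control array b, 99.4 on ING3 array a and 82.2 on ING3 array b. Both ING3 arrays lay between the control arrays. The log2 difference was 0.42 with a 95% interval from -0.70 to 1.54 (SE 0.50, limma adjusted p = 0.71), an interval that holds both a 2-fold rise and no change. Its sign depended on the control arrays, at -0.36 without control array a and 1.19 without control array b.

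Of 25 genes of the plasminogen activation system with a probe set here, 18 were tested. Of these, 3 rose and 0 fell, against 1.03% and 0.476% of all tested genes. The 3 were PLAU, PLAUR and SERPINE2. Apart from these 3 and from PLAT, given above, 14 genes of the list were tested, and of those 14 genes 0 were called by limma (1 at an unadjusted p under 0.05, against 17.7% of all tested genes), 9 had a higher and 5 a lower mean, and their median log2 difference was 0.15, against -0.0074 for all tested genes. SPINT2, an inhibitor of serine proteases such as matriptase and the activator of hepatocyte growth factor, averaged 1379 ± 135 in control cells and 1776 ± 257 with ING3 (SD, n = 2), a log2 difference of 0.36 (adjusted p = 0.14, limma). LRP1, the endocytic receptor that clears complexes of protease and serpin, averaged 111 ± 15.9 in control cells and 72.6 ± 8.14 with ING3 (SD, n = 2), with both ING3 arrays below both control arrays, a log2 difference of -0.61 that did not pass (adjusted p = 0.36). MRC2, a collagen receptor that associates with the urokinase receptor, differed by 0.091, and SERPINI1, the neuronal inhibitor of tissue-type activator, by 0.38 with overlapping groups. The liver-derived zymogen PLG itself was under the filter.

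Proteins that dock plasminogen and the urokinase receptor at the membrane were listed next. All 9 plasminogen receptor genes were tested, and the median was 0.038. Of the 9, 1 rose and 0 fell, against 1.03% and 0.476% of all tested genes. An unadjusted limma p under 0.05 was reached by 4, against 17.7% of all tested genes. The gene that rose was H2BC21, a histone H2B that has been described as a plasminogen receptor on the cell surface. It read 297 and 279 on the control and 551 and 470 on the ING3 arrays, a log2 difference of 0.82 (SE 0.15, limma adjusted p = 0.033), and was not called without control array a (0.87, adjusted p = 0.21), control array b (0.77, adjusted p = 0.24) or ING3 array a (0.71, adjusted p = 0.096), nor with all probe sets tested (adjusted p = 0.058) or with no filter (adjusted p = 0.085). S100A10, the partner of annexin A2 in binding plasminogen, averaged 13920 ± 172 in control cells and 16481 ± 829 with ING3 (SD, n = 2), a log2 difference of 0.24 that did not pass (adjusted p = 0.076). Its dimmer probe set differed by -0.098. ANXA2 itself overlapped between the groups, at -0.022. The 11 tested partners of the urokinase receptor include integrins, growth factor receptors and caveolin. By limma 0 were called, against 1.5% of all tested genes, and 2 had an unadjusted p under 0.05, against 17.7%. Of the 11, 4 had a higher and 7 a lower mean, and the median was -0.043.

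Among 14 tested serpins, of 31 with a probe set here, 2 rose and 0 fell, against 1.03% and 0.476% of all tested genes. The 2 were SERPINE2 and SERPINB1, an intracellular inhibitor of neutrophil elastase. The brightest SERPINB1 probe set read 3209 and 3380 on the control and 4611 and 5089 on the ING3 arrays, a log2 difference of 0.56 (SE 0.071, limma adjusted p = 0.0094). Its 2 other tested probe sets differed by 0.33 and 0.049, so the size is uncertain, and the call was lost with the mean of its probe sets (0.31, adjusted p = 0.067), without control array a (0.52, adjusted p = 0.19) and without control array b (0.59, adjusted p = 0.14). Without SERPINE2 the other 13 tested serpins had a median of 0.062, 8 with a higher and 5 with a lower mean. SERPINB9, the inhibitor of granzyme B, SERPINB8, another intracellular serpin, and SERPINH1, the collagen chaperone, differed by 0.062, 0.18 and 0.12, and 0 of these 3 passed. SERPINB5, known as maspin, was under the filter, and SERPINB6 was not analysed here. SERPINA1, the elastase inhibitor alpha-1-antitrypsin, was dim and differed by 0.75 (SE 0.26) without passing (adjusted p = 0.19).

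**Figure D3:**
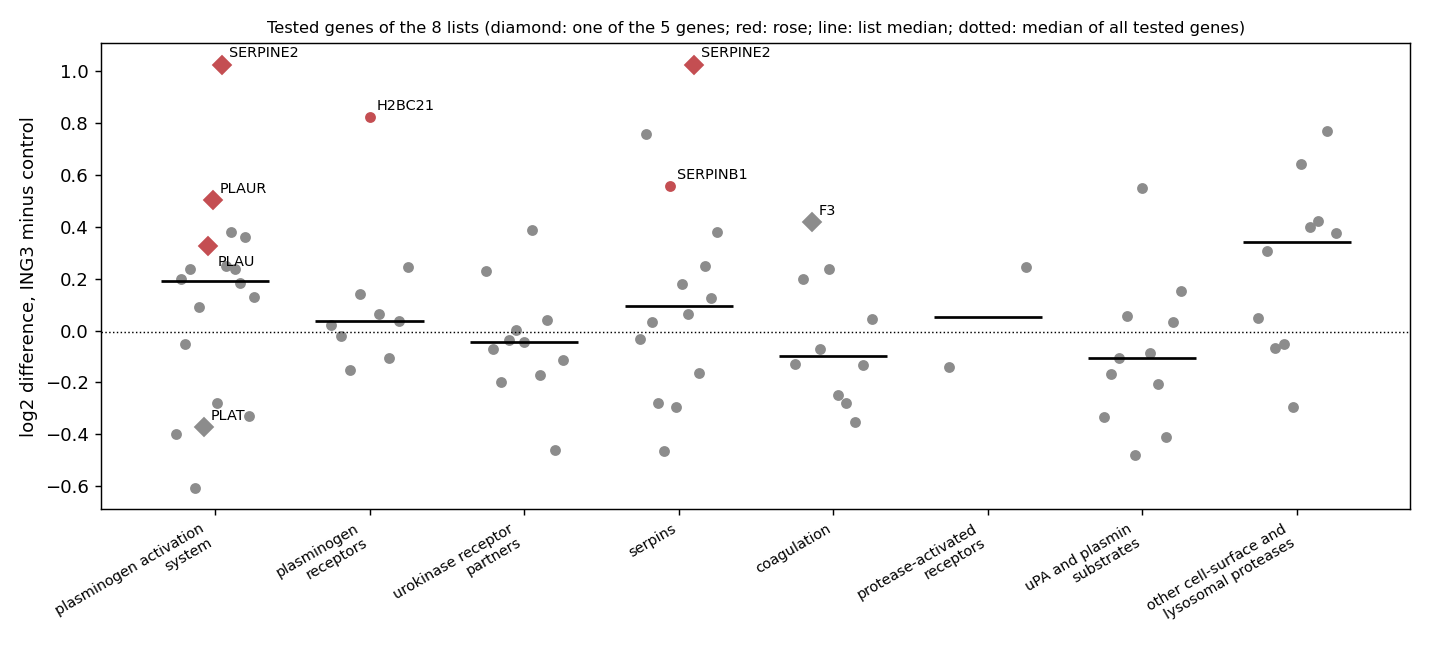
Log2 difference, ING3 minus control, of each tested gene in 8 lists around plasminogen activation. Diamonds are the 5 genes described here, red marks genes that rose, black lines are list medians and the dotted line is the median of all tested genes. SERPINE2 stands highest at 1.02, and the median is 0.19 for the plasminogen activation system, 0.093 for the serpins and -0.10 for coagulation genes.

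Around tissue factor, 10 of 28 coagulation and anticoagulant genes were tested, F3 among them. By limma 0 were called, against 1.5% of all tested genes, and 1 had an unadjusted p under 0.05, against 17.7%. Of the 10, 4 had a higher and 6 a lower mean, and the median was -0.10. TFPI, the inhibitor of tissue factor with factor VII, read 16469 and 15376 on the control and 15206 and 13882 on the ING3 arrays, a log2 difference of -0.13 (adjusted p = 0.32), and its 4 other probe sets, all past the filter, differed by between -0.16 and -0.0062. PROCR, the endothelial protein C receptor, read 574 and 546 on the control and 417 and 509 on the ING3 arrays, a log2 difference of -0.28 that did not pass (adjusted p = 0.32). PROS1, protein S, which serves as cofactor of protein C, differed by -0.35 (adjusted p = 0.13), with both ING3 arrays below both control arrays. Thrombomodulin (THBD) and TFPI2 were under the filter. F2R, the thrombin receptor PAR1, read 6706 and 7815 on the control and 8956 and 4828 on the ING3 arrays, so that the ING3 duplicates lay on both sides of the control, and F2RL1 was not analysed here.

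The profiles of other genes over the 4 arrays were set beside those of the 5 genes by the Euclidean distance between log2 signals, each gene centred on its own mean. The nearest to SERPINE2 were UCA1, a long noncoding RNA (distance 0.045, log2 difference 1.04), KRT13, a keratin (0.070 and 0.98), and FA2H, a fatty acid hydroxylase (0.095 and 1.01). Those nearest to PLAUR were AKAP12, a scaffold of protein kinase A (0.052 and 0.55), CARHSP1 (0.059 and 0.46) and the chemokine CX3CL1 (0.061 and 0.51). RBM24, PLS3 and PLAC8 lay nearest to PLAU, at distances of 0.023, 0.023 and 0.025, and APAF1, MADCAM1 and NABP2 nearest to PLAT, at 0.023, 0.024 and 0.027. No gene came close to F3, whose nearest, IL21R-AS1, SLC5A5 and KIFC3, lay at 0.20, 0.25 and 0.29. Over 4 arrays in 2 groups the distance reads little besides the size of the group difference and the duplicate gaps.

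**Figure D4:**
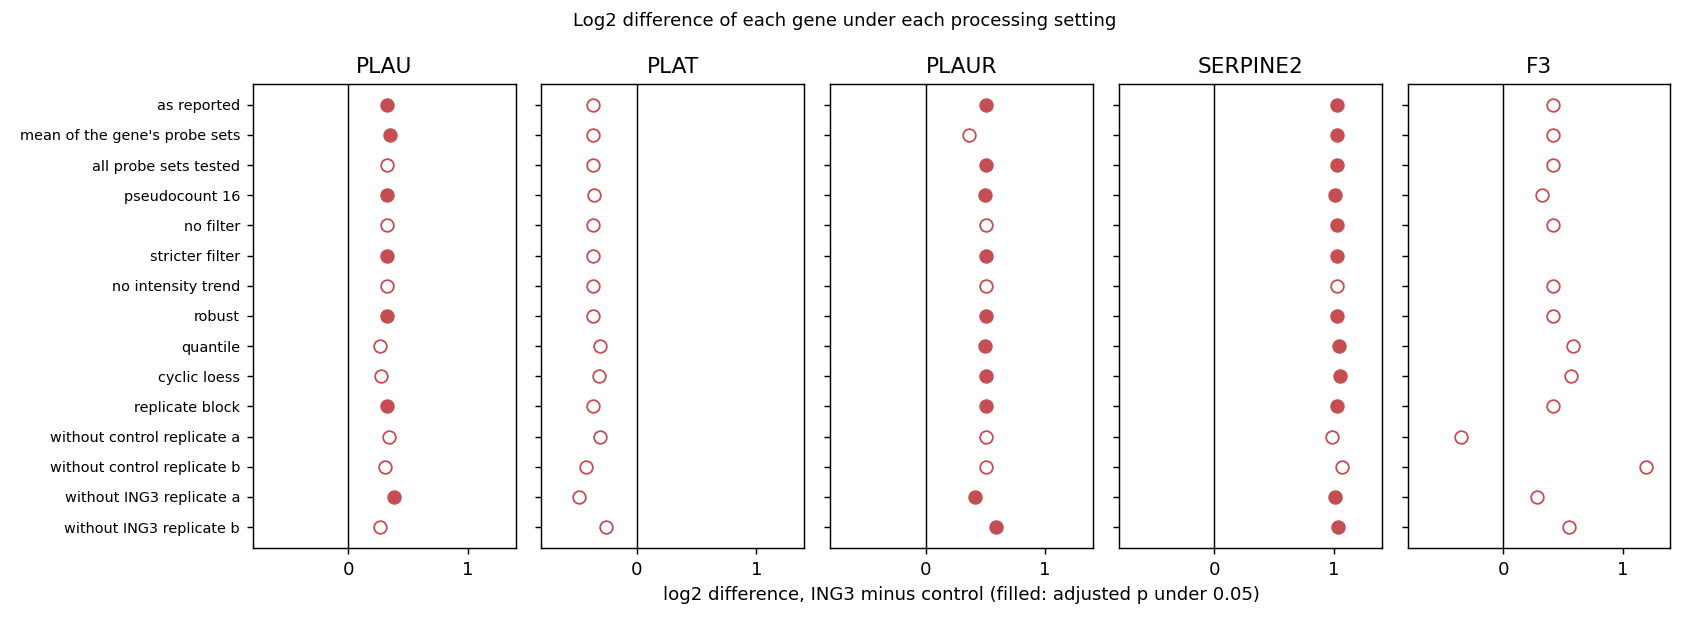
Log2 difference, ING3 minus control, of each gene as reported and under each alternative setting, with filled circles where the limma adjusted p was under 0.05. The dim F3 probe set has no value under the stricter filter. SERPINE2 stays near 1.02 throughout and F3 changes sign without control array a.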

How the data were processed

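The data were 1-colour Affymetrix expression arrays, 2 per group, with groups taken from the titles. The deposited table held linear signal intensity for 54675 probe sets, which the authors made in Affymetrix Expression Console by MAS5 (per the submitters' processing notes, which state no version). The mean of the deposited intensities without the lowest and highest 2% was 500.1 on each array, which shows a common scaling. Since MAS5 takes off mismatch signals, dim probe sets vary widely. The table held no detection calls, and precision is limited by the number of arrays.

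Control probe sets (62) were left out. GEO's platform annotation of 2016 gave 41097 probe sets 1 symbol and 1801 several, and 11777 were unnamed here. Each gene's brightest probe set was used, and the 12190 genes with a mean log2(signal + 1) at or above the median probe set (signal 64.6) were tested with limma 3.58.1 in R 4.3.3 (lmFit, eBayes with intensity trend, two-sided, no covariates), with 2 residual and 7.35 borrowed degrees of freedom. The other probe sets were tested in a fit of all 22559 named probe sets past the filter. Genes were named by rule, with the exceptions that follow: the 5 genes, called list members, a fixed set of relatives and the 3 nearest profiles for each. SPINT2, SERPINA1, PROS1, CDH1 and other marker genes given by value were chosen after their values were seen. PRSS23, KLK6, KLK7, KLK8, HTRA1, CTSB, CTSL, CTSD, FGF2, TGFB1 and MET were also named outside this rule, with their values known. The 5 genes and the lists were chosen with earlier results of these data known.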

Additional observations from a re-analysis of the deposited data

How the results depend on the processing

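PLAU, PLAUR, PLAT and SERPINE2 kept their direction under all 14 alternatives, and F3 under 12 of 13, since the stricter filter left it untested. The count of called genes, 183 as reported, was 122 with the mean of a gene's probe sets, 54 with no filter, 119 after quantile normalization, 0 without an intensity trend in eBayes (1686 at an unadjusted p under 0.05), and 2 to 305 on leaving out 1 array, and in the fit of all 22559 probe sets 108 probe sets were called. Of the 5 genes, 3 as reported, 1 was called with no filter (SERPINE2), 0 without the trend and 0 to 3 on leaving out 1 array. PLAU did not pass with all probe sets (0.32), with no filter (0.32), without the trend (0.32), after quantile normalization (0.26) or cyclic loess (0.27), nor PLAUR with the mean of its probe sets (0.36), with no filter or without the trend (0.50), nor SERPINE2 without the trend (1.02). Leaving out 1 array gave 0.27 to 0.38 for PLAU, 0.41 to 0.59 for PLAUR, 0.98 to 1.06 for SERPINE2 and -0.36 to 1.19 for F3. The causes were not tested. With the array letter as a replicate block 442 genes were called, and of the 5 the same 3 (adjusted p = 0.017 for PLAU, 0.0043 for PLAUR and 8.1e-05 for SERPINE2). The labels do not say that letters pair arrays, and the differences between arrays a and b of the groups correlated at 0.029 across genes. F3 and the second SERPINE2 probe set were dim and their duplicates lay far apart, and the cause of this spread was not tested.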

Other observations

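A list of 21 lysosomal, cell-surface and secreted proteases with a probe set here shared HPN and ST14 with the plasminogen activation system. Of the 21, 10 were tested. Of these 10 genes 7 averaged higher with ING3 (48.3% of all tested genes did so), both ING3 arrays lay above both control arrays for 6 (24.3% of all tested genes did so), and the median log2 difference was 0.34, with 0 called by limma and 6 at an unadjusted p under 0.05 (17.7% of all tested genes). PRSS23, a secreted serine protease, averaged 1453 ± 108 in control cells and 1886 ± 99.3 with ING3 (SD, n = 2), a log2 difference of 0.38 (adjusted p = 0.069), and its 2 other probe sets past the filter differed by 0.33 and 0.37. The kallikreins KLK6, KLK7 and KLK8, secreted serine proteases of epithelia, differed by 0.40, 0.42 and 0.77 (adjusted p = 0.097, 0.24 and 0.18). HTRA1, a secreted serine protease that cuts matrix proteins, differed by -0.29 (adjusted p = 0.11). Cathepsin B (CTSB) and cathepsin L (CTSL), lysosomal cysteine proteases, differed by 0.048 and -0.068. Cathepsin D (CTSD) read 963 and 903 on the control and 1261 and 1055 on the ING3 arrays. Its log2 difference of 0.31 did not pass (limma adjusted p = 0.19).

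Among 11 tested genes of growth factor signalling around urokinase and plasmin, 0 were called by limma, against 1.5% of all tested genes. An unadjusted limma p under 0.05 was reached by 1, against 17.7% of all tested genes. Of the 11, 4 had a higher and 7 a lower mean, and the median was -0.10. FGF2, a fibroblast growth factor held in the matrix, read 668 and 608 on the control and 513 and 499 on the ING3 arrays, a log2 difference of -0.33 (adjusted p = 0.19). TGFB1, which plasmin can release from its latent form, differed by -0.41 (adjusted p = 0.32). MET, the receptor of hepatocyte growth factor, differed by 0.057. These genes were picked after their values were seen.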
